A study of Mus musculus with 8 samples.

Results

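The nuclear genes for the subunits of respiratory complexes II, III, IV and V, with cytochrome c, were followed in the livers of mice that received a virus encoding Lpcat3 or a control virus. The members were the protein-coding rows of the count table whose mouse symbol is Sdha, Sdhb, Sdhc, Sdhd, Cyc1 or Cycs, or begins with Uqcr, Cox4i, Cox5, Cox6, Cox7, Cox8 or Atp5, with at least 80 counts over the 8 libraries. There were 42 members among 40838 rows: 4 of complex II, 9 of complex III, cytochrome c itself, 11 of complex IV and 17 of complex V. The Lpcat3 group was 4 livers of C57BL/6 mice given an adeno-associated virus (AAV) carrying Lpcat3, and the eGFP group, the controls, was 4 livers of C57BL/6 mice given the same kind of virus carrying enhanced green fluorescent protein. Both transgenes were driven by TBG, a promoter active in hepatocytes. Every mouse was kept on a NASH diet, which leads to fatty, inflamed livers (nonalcoholic steatohepatitis), for 16 weeks, and the virus was given after the first 7 weeks, with 9 weeks of diet after it. Age and sex are not given in the labels, and the labels do not say that each library is a separate animal, so p-values measure the spread between these libraries. Whole liver RNA was counted, so hepatocytes and all other liver cells are mixed in each value.

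The respiratory chain moves electrons from fuels to oxygen and stores the energy as a proton gradient across the inner mitochondrial membrane. Complex II oxidises succinate and passes its electrons to ubiquinone, complex III passes them on to cytochrome c, complex IV hands them to oxygen, and complex V lets protons flow back to make ATP. Hepatocytes are rich in mitochondria and use this ATP for gluconeogenesis, urea synthesis and lipid handling. Complex II is encoded wholly in the nucleus, while complexes III, IV and V also contain subunits encoded in mitochondrial DNA, which were not analysed here. LPCAT3 is an acyltransferase that places polyunsaturated fatty acids on lysophospholipids, and the title of the series names mitochondrial homeostasis as its subject.

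Several of these genes are known targets of the transcription factors NRF1 and GABP, an ETS-family factor that is also called NRF2, and of the nuclear receptor ESRRA and the factor CREB. Promoter windows of 300 bases were available in RefSeq (GRCm38.p6) for 33 of the 42 members, from 250 bases before the annotated start site to 50 bases after it. Atp5a1, Atp5mpl, Cox4i1, Cox6c, Cyc1, Sdhc, Uqcrb, Uqcrc2 and Uqcrq had no entry. An exact search on both strands found the NRF1 consensus in 10 of 33 member promoters (30.3%), against 1402 of 27025 genes with a promoter (5.19%). The ETS letters CCGGAAG occurred in 13 of 33 member promoters (39.4%), against 2683 of all 27025 (9.93%). At least NRF1 or ETS letters were present in 19 member promoters (57.6%), against 14.0% of all, and both in 4 (12.1%; Atp5h, Atp5k, Cox6a1 and Sdhd), against 1.01% of all. The ESRRA letters TNAAGGTCA were present in 2 (6.06%; Atp5g3 and Sdhd), against 1.43% of all, and the CREB letters TGACGTCA in 2 (6.06%; Cycs and Uqcrfs1), against 2.03% of all. The YY1 consensus was present in 0 of 33, against 0.755% of all. The comparison is with every gene that has a promoter window, not matched for expression or base composition, so an excess may not be particular to respiratory genes. A match describes the letters in a window and does not show that a factor binds there.

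The promoters of a member of each complex and of cytochrome c are shown to make these matches visible, chosen after the matches were known. Capitals mark the matches, read 5′ to 3′ on the gene's own strand in the build GRCm38.p6, and in these windows no match overlaps another. Positions count from the start site, with negative numbers before it.
Sdhd, chr9:50603800-50604099, minus strand: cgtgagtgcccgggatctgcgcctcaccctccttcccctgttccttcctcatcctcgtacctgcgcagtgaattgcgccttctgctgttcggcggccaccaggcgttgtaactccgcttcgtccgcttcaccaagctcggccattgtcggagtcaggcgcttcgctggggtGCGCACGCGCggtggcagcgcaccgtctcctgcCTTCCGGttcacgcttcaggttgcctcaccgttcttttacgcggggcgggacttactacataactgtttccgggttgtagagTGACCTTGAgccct
Uqcrc1, chr9:108936398-108936697, plus strand: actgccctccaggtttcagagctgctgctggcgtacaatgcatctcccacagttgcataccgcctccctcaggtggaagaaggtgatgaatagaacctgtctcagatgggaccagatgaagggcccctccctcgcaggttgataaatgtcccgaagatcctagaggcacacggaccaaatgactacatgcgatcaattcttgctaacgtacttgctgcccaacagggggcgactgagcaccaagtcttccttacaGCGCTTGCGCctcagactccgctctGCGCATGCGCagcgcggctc
Cycs, chr6:50566520-50566819, minus strand: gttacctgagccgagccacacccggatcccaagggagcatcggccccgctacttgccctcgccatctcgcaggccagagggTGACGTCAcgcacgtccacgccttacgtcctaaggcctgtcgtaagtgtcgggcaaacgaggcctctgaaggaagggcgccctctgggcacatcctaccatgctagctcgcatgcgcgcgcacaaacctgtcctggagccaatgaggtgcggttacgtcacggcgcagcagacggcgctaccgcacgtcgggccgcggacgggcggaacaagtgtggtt
Cox6a1, chr5:115348909-115349208, minus strand: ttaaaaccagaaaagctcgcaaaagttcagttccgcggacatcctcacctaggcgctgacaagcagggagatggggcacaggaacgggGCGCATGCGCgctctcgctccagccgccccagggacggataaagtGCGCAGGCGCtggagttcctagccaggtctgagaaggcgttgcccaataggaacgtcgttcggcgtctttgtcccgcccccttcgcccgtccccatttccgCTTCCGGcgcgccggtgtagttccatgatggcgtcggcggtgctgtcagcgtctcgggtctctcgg
Atp5g3, chr2:73911277-73911576, minus strand: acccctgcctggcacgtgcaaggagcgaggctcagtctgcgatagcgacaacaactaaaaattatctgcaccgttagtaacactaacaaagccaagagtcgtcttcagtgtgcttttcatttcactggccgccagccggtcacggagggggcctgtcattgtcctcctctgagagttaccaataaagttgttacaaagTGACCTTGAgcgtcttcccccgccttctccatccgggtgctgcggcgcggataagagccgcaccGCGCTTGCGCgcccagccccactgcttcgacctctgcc
In the Sdhd window the NRF1 letters begin at -79, the ETS letters at -46 and the ESRRA letters at 37, and in all windows CTTCCGG and TGACCTTGA are matches on the opposite strand. Uqcrc1 holds the NRF1 letters at 6 and 31. Cycs holds the CREB letters at -169. Cox6a1 holds the NRF1 letters at -162 and -117 and the ETS letters at -16, and Atp5g3 holds the ESRRA letters at -52 and the NRF1 letters at 13.

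The transgene was checked first. Lpcat3 itself had 274, 401, 465 and 311 CPM (reads of the gene as a share of the library's TMM-scaled total, the scale of all CPM below) in Lpcat3 livers 1 to 4, against 158, 148, 133 and 173 CPM in eGFP livers 1 to 4, and the groups did not overlap. Its mean was 363 ± 86.7 CPM in Lpcat3 livers and 153 ± 17.2 CPM in eGFP livers (SD, n = 4 each). Its log2 fold change was 1.25 (SE 0.17), and the adjusted p of 0.164 from edgeR's quasi-likelihood test missed the threshold of 0.05. The DESeq2 adjusted p was 9.77e-09, and the two-sided exact permutation test gave 0.0286, the smallest value that 70 relabellings allow. Reads from the virus and from the animals' own Lpcat3 gene cannot be told apart in these counts. Library totals ran from 22433625 to 25651874 counts. On the first principal component of log2 CPM, which held 40.9% of the variance, Lpcat3 liver 3 lay at 51.0 and eGFP liver 3 at -46.1, with the other 6 libraries between them.

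Transcripts of complexes II to V differed little between the groups: the summed level of each complex was 4.17% to 7.53% higher with Lpcat3, each time by less than the SD of the eGFP livers. None of the 42 subunits passed the test in either direction, and 40 of 42 had a log2 fold change above 0, with a median of 0.085 across all 42, against -0.0065 across all genes tested. The largest difference was that of Cyc1, at 0.18 on the log2 scale, and the lowest was that of Atp5mpl, at -0.027. All 42 members passed the filter on low counts. Across all 17438 genes tested, edgeR called 1 gene higher (0.00573%) and 0 genes lower (0.0%), and 1478 genes (8.48%) had an unadjusted p below 0.05, while 0 of the 42 subunits did. The 1 called gene, Egfros, an Egfr-opposite-strand transcript, is not a respiratory gene and was named after its value was seen. DESeq2 called 51 genes (0.292%) and 0 of the subunits, and 1 subunit, Uqcrc2, had an unadjusted p below 0.05 there. A log2 fold change above 0 was found for 48.5% of all genes tested.

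The precision of these values sets what could have been seen. The standard errors of the 42 log2 fold changes lay between 0.056 and 0.14, and the adjusted p between 0.611 and 0.995. All 42 of the 95% intervals contained 0, and across members they reached from 0.868-fold to 1.35-fold, so differences beyond these bounds lie outside the intervals of every member. The median coefficient of variation of the subunits was 5.21% in Lpcat3 livers and 8.38% in eGFP livers, against 13.0% and 14.3% over all genes tested in Lpcat3 and eGFP livers. Genes with few reads vary more through counting alone, and the genes were not matched for level. Whether the subunits vary less than other genes of similar level was not tested.

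**Figure D1:**
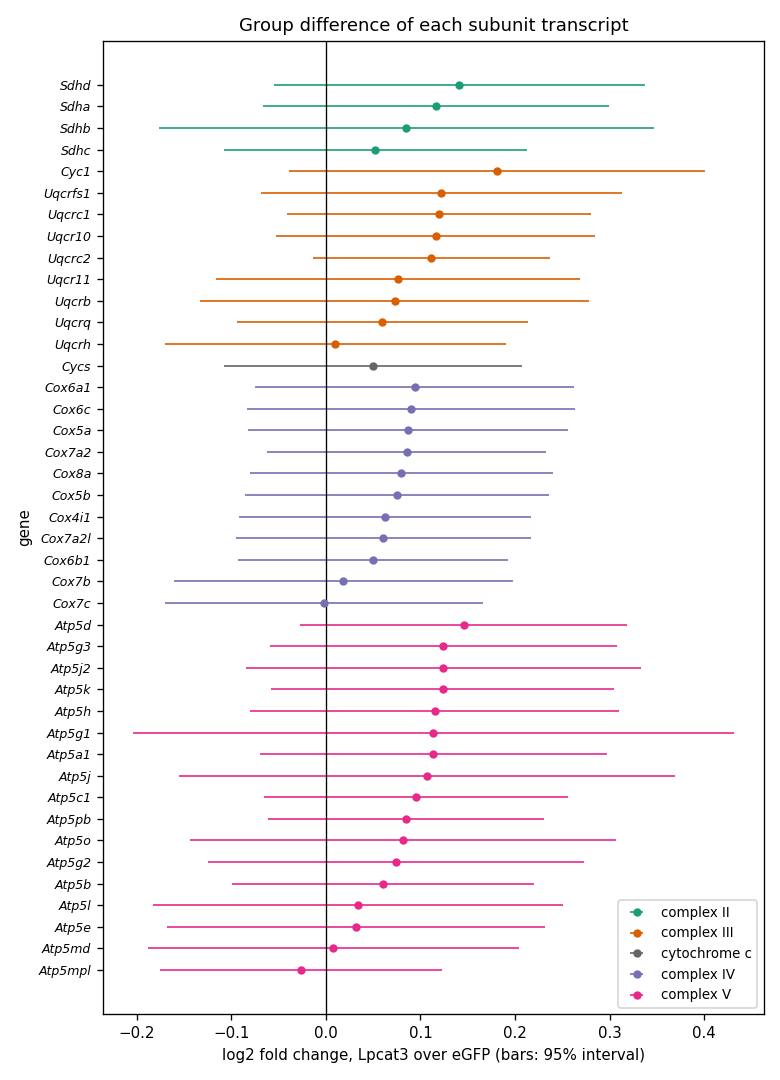
Log2 fold changes (Lpcat3 over eGFP, x axis) of the 42 subunits, listed by complex from complex II at the top to complex V at the bottom, with 95% intervals from the edgeR fit as bars. All 42 intervals cross 0, and 40 of the 42 points lie above it.

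Complex II feeds electrons from the citric acid cycle into the chain. All 4 of its subunits had log2 fold changes above 0, with a median of 0.10, and 0 of 4 passed the test. Summed over the 4 genes, transcripts of complex II came to 583, 601, 651 and 581 CPM in Lpcat3 livers 1 to 4, against 536, 579, 502 and 631 CPM in eGFP livers 1 to 4. Lpcat3 liver 3 was highest and eGFP liver 3 lowest, while eGFP liver 4 lay above Lpcat3 livers 1, 2 and 4, so the groups overlapped. The sums averaged 604 ± 32.5 CPM in Lpcat3 livers and 562 ± 55.6 CPM in eGFP livers (SD, n = 4 each), 7.53% higher with Lpcat3. In bulk liver RNA, fewer cells of a type and less RNA per cell cannot be told apart.

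Sdha, the flavoprotein that oxidises succinate, had 282, 300.4, 309 and 295 CPM in Lpcat3 livers 1 to 4, against 259.7, 278, 249.6 and 306 CPM in eGFP livers 1 to 4. In this gene eGFP livers 1, 2 and 3 lay below all 4 Lpcat3 livers, and eGFP liver 4 lay above 3 of them. The difference did not pass the test (log2 fold change of 0.12, 95% interval -0.066 to 0.30, edgeR adjusted p = 0.671). Sdhd, a membrane anchor at the ubiquinone site whose promoter is shown above, had 101, 99.6, 113 and 91.4 CPM in Lpcat3 livers 1 to 4, against 91.9, 94.6, 81.0 and 99.9 CPM in eGFP livers 1 to 4. Lpcat3 liver 4 lay below eGFP livers 1, 2 and 4, so the groups overlapped (log2 fold change of 0.14, 95% interval -0.055 to 0.34, edgeR adjusted p = 0.652). Sdhc, the other membrane anchor, had 90.9, 91.8, 97.0 and 87.1 CPM in Lpcat3 livers 1 to 4, against 86.8, 89.5, 80.5 and 96.9 CPM in eGFP livers 1 to 4, with eGFP liver 4 just under Lpcat3 liver 3 and above the other Lpcat3 livers (log2 fold change of 0.052, 95% interval -0.11 to 0.21, edgeR adjusted p = 0.827). Per kb of coding transcript (GENCODE M21) Sdha stood at 102 CPM per kb in Lpcat3 livers and 94.3 CPM per kb in eGFP livers, while Sdhd stood at 82.3 CPM per kb in Lpcat3 livers and 74.6 CPM per kb in eGFP livers.

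Complex III passes electrons from ubiquinol to cytochrome c. All 9 of its nuclear subunits had log2 fold changes above 0, with a median of 0.11, and 0 of 9 passed the test. Their sum was 677, 679.7, 752 and 681 CPM in Lpcat3 livers 1 to 4, against 634, 671, 594 and 714 CPM in eGFP livers 1 to 4. Lpcat3 liver 3 again stood highest and eGFP liver 3 lowest, and eGFP liver 4 exceeded Lpcat3 livers 1, 2 and 4. The sums averaged 697 ± 36.5 CPM in Lpcat3 livers and 653 ± 51.2 CPM in eGFP livers (SD, n = 4 each), 6.83% higher with Lpcat3.

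Uqcrc2, a core protein on the matrix side, had 83.7, 88.4, 88.5 and 86.0 CPM in Lpcat3 livers 1 to 4, against 79.8, 82.2, 76.5 and 82.4 CPM in eGFP livers 1 to 4. It was the 1 member of 42 whose groups did not overlap, higher in Lpcat3, and 0 members were without overlap and lower, where 336 of all 17438 genes (1.93%) were without overlap and higher and 390 (2.24%) without overlap and lower. Uqcrc2 averaged 86.7 ± 2.29 CPM in Lpcat3 livers and 80.2 ± 2.74 CPM in eGFP livers (SD, n = 4 each). Its log2 fold change was 0.11 (95% interval -0.013 to 0.24), with an unadjusted p of 0.0745 and an adjusted p of 0.611 in edgeR, and the two-sided exact permutation test gave 0.0286, the smallest value possible here. Uqcrc1, the partner core protein, whose promoter carries the NRF1 letters at 2 positions, had 96.9, 93.9, 102 and 93.4 CPM in Lpcat3 livers 1 to 4, against 84.8, 85.6, 85.1 and 99.7 CPM in eGFP livers 1 to 4. Its eGFP livers 1, 2 and 3 lay within 84.8 to 85.6 CPM, below all Lpcat3 livers, and eGFP liver 4 was the second highest of all 8 (log2 fold change of 0.12, 95% interval -0.041 to 0.28, edgeR adjusted p = 0.648).

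Cyc1, the cytochrome c1 heme protein that delivers electrons to cytochrome c, had 61.5, 58.4, 70.1 and 66.0 CPM in Lpcat3 livers 1 to 4, against 56.2, 57.1, 47.7 and 64.8 CPM in eGFP livers 1 to 4. Here eGFP livers 1, 2 and 3 lay below all Lpcat3 livers and eGFP liver 4 lay above Lpcat3 livers 1 and 2. Its difference was the largest of the 42, yet its interval included 0 (log2 fold change of 0.18, 95% interval -0.039 to 0.40, edgeR adjusted p = 0.63). Uqcrb, a small ubiquinone-binding subunit, had 144, 150.2, 172 and 145 CPM in Lpcat3 livers 1 to 4, against 138, 157, 128 and 157 CPM in eGFP livers 1 to 4. Of these, eGFP livers 2 and 4 lay above 3 of the 4 Lpcat3 livers (log2 fold change of 0.073, 95% interval -0.13 to 0.28, edgeR adjusted p = 0.811). Uqcrh, the acidic hinge protein, had 49.6, 48.4, 57.2 and 47.5 CPM in Lpcat3 livers 1 to 4, against 49.4, 52.2, 45.8 and 53.9 CPM in eGFP livers 1 to 4. The groups overlapped widely (log2 fold change of 0.01, 95% interval -0.17 to 0.19, edgeR adjusted p = 0.973). Per kb of coding transcript Uqcrb was the highest of the 9, at 286 CPM per kb in Lpcat3 livers and 272 CPM per kb in eGFP livers, and Cyc1 the lowest, at 42.1 CPM per kb in Lpcat3 livers and 37.2 CPM per kb in eGFP livers.

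Cycs, cytochrome c itself, is the mobile carrier between complexes III and IV and a trigger of apoptosis when released. It had 169, 187, 178 and 196 CPM in Lpcat3 livers 1 to 4, against 172, 169, 178 and 186 CPM in eGFP livers 1 to 4. The order of libraries differed from that of the complexes: Lpcat3 liver 1 was lowest and Lpcat3 liver 4 highest, and the groups overlapped. Its mean was 182 ± 11.7 CPM in Lpcat3 livers and 176 ± 7.24 CPM in eGFP livers (SD, n = 4 each), with a log2 fold change of 0.05, 95% interval -0.11 to 0.21, edgeR adjusted p = 0.832. The Cycs promoter shown above was the 1 of the 5 printed with no exact match to the NRF1 or ETS letters. The search was exact, so a site that differs from these letters would be missed, and a lack of a match does not show that no site is present.

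Complex IV, cytochrome c oxidase, reduces oxygen to water. Of its 11 nuclear members, 10 had log2 fold changes above 0, with a median of 0.075, and 0 passed the test. Their sum was 922, 910.4, 970.4 and 893 CPM in Lpcat3 livers 1 to 4, against 882, 923, 809 and 933 CPM in eGFP livers 1 to 4. The sums averaged 924 ± 33.3 CPM in Lpcat3 livers and 887 ± 56.5 CPM in eGFP livers (SD, n = 4 each), 4.17% higher with Lpcat3, and eGFP livers 2 and 4 lay above all Lpcat3 livers but number 3.

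Cox8a, a small subunit and the one with the highest CPM in complex IV, had 142, 134, 144 and 129.8 CPM in Lpcat3 livers 1 to 4, against 131, 140.0, 119 and 131 CPM in eGFP livers 1 to 4. Lpcat3 livers 1 and 3 lay above all eGFP livers and Lpcat3 liver 4 below 3 of them (log2 fold change of 0.08, 95% interval -0.08 to 0.24, edgeR adjusted p = 0.732). Cox7a2, which sits at the surface where complexes meet, had 48.0, 53.5, 54.4 and 53.9 CPM in Lpcat3 livers 1 to 4, against 50.3, 49.3, 46.2 and 52.1 CPM in eGFP livers 1 to 4. Its Lpcat3 livers 2, 3 and 4 lay above all eGFP livers and Lpcat3 liver 1 below 3 of them (log2 fold change of 0.085, 95% interval -0.062 to 0.23, edgeR adjusted p = 0.689). Cox6a1, a regulatory subunit whose promoter holds NRF1 and ETS letters, had 60.8, 56.0, 58.7 and 56.8 CPM in Lpcat3 livers 1 to 4, against 54.8, 54.4, 48.2 and 60.5 CPM in eGFP livers 1 to 4. Here eGFP livers 1, 2 and 3 lay below all Lpcat3 livers, and eGFP liver 4 just under Lpcat3 liver 1 (log2 fold change of 0.094, 95% interval -0.075 to 0.26, edgeR adjusted p = 0.698).

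Cox6c, another small structural subunit, had 74.4, 76.7, 90.8 and 81.2 CPM in Lpcat3 livers 1 to 4, against 74.1, 76.8, 71.5 and 81.2 CPM in eGFP livers 1 to 4, with near-equal values in Lpcat3 liver 4 and eGFP liver 4 (log2 fold change of 0.09, edgeR adjusted p = 0.717). Cox7c had 88.0, 84.9, 84.1 and 84.2 CPM in Lpcat3 livers 1 to 4, against 86.8, 85.9, 74.7 and 94.2 CPM in eGFP livers 1 to 4. All 4 Lpcat3 livers lay between eGFP liver 3 and eGFP liver 4, and the group means were 85.3 ± 1.84 CPM in Lpcat3 livers and 85.4 ± 8.05 CPM in eGFP livers (log2 fold change of -0.0022, 95% interval -0.17 to 0.17, edgeR adjusted p = 0.995). A Cox7c pseudogene, Cox7c-ps1, had 1301 counts over all libraries, so some Cox7c reads could have been split between the copies. Reads of other near-identical pseudogenes could likewise be assigned to a member or lost, since 14 pseudogenes of these families are in the RefSeq table and 1 is in the count table.

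Cox4i1, the isoform of subunit 4 that most tissues use, had 69.3, 65.8, 69.2 and 63.4 CPM in Lpcat3 livers 1 to 4, against 63.7, 66.2, 57.9 and 68.6 CPM in eGFP livers 1 to 4. Lpcat3 livers 1 and 3 lay above all eGFP livers, by a narrow margin over eGFP liver 4 (log2 fold change of 0.063, edgeR adjusted p = 0.783). Cox6b1, which helps complex IV to form dimers, had 135, 135, 136 and 130.0 CPM in Lpcat3 livers 1 to 4, against 128, 139, 121 and 129.8 CPM in eGFP livers 1 to 4. Here eGFP liver 2 lay above all Lpcat3 livers and the other eGFP livers below all of them (log2 fold change of 0.05, edgeR adjusted p = 0.815). Cox7b had 117, 119, 135 and 119 CPM in Lpcat3 livers 1 to 4, against 117, 129, 109 and 129 CPM in eGFP livers 1 to 4, with eGFP livers 2 and 4 above all Lpcat3 livers but number 3 (log2 fold change of 0.019, edgeR adjusted p = 0.949). Cox7a2l is known for a part in supercomplexes of complexes III and IV. The counts do not show the form or the function of its protein in these mice. Cox7a2l had 66.6, 68.2, 68.9 and 60.5 CPM in Lpcat3 livers 1 to 4, against 66.1, 63.8, 57.6 and 65.7 CPM in eGFP livers 1 to 4. Lpcat3 liver 4 lay below 3 of the eGFP livers and the other Lpcat3 livers above all of them (log2 fold change of 0.061, edgeR adjusted p = 0.792).

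The isoforms that other tissues use were nearly absent. Cox7a1, the heart and muscle isoform of subunit 7a, had 45 counts in all 8 libraries, the nearest below the limit of 80 counts, 21 of them in Lpcat3 livers and 24 in eGFP livers. The member nearest the limit on the inside was Atp5k, with 2671 counts, so no member lay close to it. Cox4i2, an isoform best known from lung, had 1, 1, 0 and 0 counts in Lpcat3 livers 1 to 4, against 2, 1, 5 and 6 in eGFP livers 1 to 4, and the groups overlapped. The testis isoform Cox6b2 had 8 counts in Lpcat3 livers and 15 in eGFP livers. Cox6a2, of heart and muscle, had 8 in Lpcat3 livers and 7 in eGFP livers, and the muscle isoform Cox8b 7 in Lpcat3 livers and 5 in eGFP livers. Cox7b2 and Cox8c had 0 counts in all 8 libraries, which allows up to 0.0156 CPM over the 8 libraries together (3 counts, counting error only). Per kb of coding transcript Cox6a1 stood at 102 CPM per kb in Lpcat3 livers and 95.4 CPM per kb in eGFP livers, against 0.131 CPM per kb in Lpcat3 livers and 0.104 CPM per kb in eGFP livers for Cox6a2. Cox8a likewise stood at 250.2 CPM per kb in Lpcat3 livers and 237 CPM per kb in eGFP livers, against 0.212 CPM per kb in Lpcat3 livers and 0.139 CPM per kb in eGFP livers for Cox8b.

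Complex V, the ATP synthase, turns the proton gradient into ATP. Of its 17 nuclear members, 16 had log2 fold changes above 0, with a median of 0.095, and 0 passed the test. Their sum was 1986, 2005, 2141 and 2002 CPM in Lpcat3 livers 1 to 4, against 1861, 1941, 1767 and 2073 CPM in eGFP livers 1 to 4. Lpcat3 liver 3 stood above the other Lpcat3 livers, eGFP liver 3 was the lowest of all 8, and eGFP liver 4 was second to Lpcat3 liver 3. The sums averaged 2033 ± 72.1 CPM in Lpcat3 livers and 1910.4 ± 129 CPM in eGFP livers (SD, n = 4 each), 6.44% higher with Lpcat3.

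**Figure D2:**
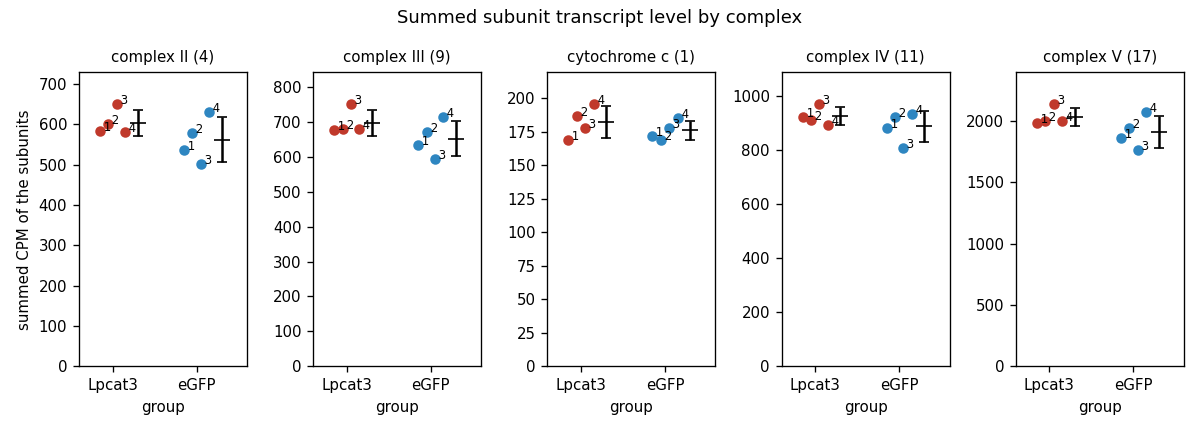
Summed CPM of the subunits of each complex and of cytochrome c (y axis, from 0) in the 4 Lpcat3 livers (left of each panel) and the 4 eGFP livers (right), with replicate numbers beside the points and mean ± SD as black marks. For complexes II, III, IV and V, Lpcat3 liver 3 is the highest point and eGFP liver 3 the lowest.

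Atp5b, the catalytic beta subunit, had the highest CPM of all 42, a value not corrected for length, with 591, 595, 604 and 595 CPM in Lpcat3 livers 1 to 4, against 561, 568, 562 and 597 CPM in eGFP livers 1 to 4. Here eGFP livers 1, 2 and 3 lay below all Lpcat3 livers and eGFP liver 4 lay above 3 of them (log2 fold change of 0.06, 95% interval -0.10 to 0.22, edgeR adjusted p = 0.798). Atp5d, the delta subunit of the rotating central stalk, had 137, 138, 147 and 137 CPM in Lpcat3 livers 1 to 4, against 124, 133, 111 and 137 CPM in eGFP livers 1 to 4. Again eGFP livers 1, 2 and 3 lay below all Lpcat3 livers (log2 fold change of 0.15, 95% interval -0.027 to 0.32, edgeR adjusted p = 0.625). Its mean was 139.7 ± 4.68 CPM in Lpcat3 livers and 126 ± 11.6 CPM in eGFP livers (SD, n = 4 each). Atp5k, subunit e, which holds the dimers together that shape the cristae, had 14.2, 15.1, 15.7 and 13.1 CPM in Lpcat3 livers 1 to 4, against 13.0, 13.8, 12.8 and 13.6 CPM in eGFP livers 1 to 4. Its Lpcat3 livers 1, 2 and 3 lay above all eGFP livers and Lpcat3 liver 4 below eGFP livers 2 and 4 (log2 fold change of 0.12, 95% interval -0.058 to 0.30, edgeR adjusted p = 0.665). Atp5mpl, a small membrane subunit, had the lowest log2 fold change of all 42, with 36.9, 35.1, 38.1 and 34.9 CPM in Lpcat3 livers 1 to 4, against 37.0, 36.9, 34.0 and 39.7 CPM in eGFP livers 1 to 4. The highest of these was eGFP liver 4 and the lowest eGFP liver 3 (log2 fold change of -0.027, 95% interval -0.18 to 0.12, edgeR adjusted p = 0.906).

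The membrane rotor of complex V is a ring of c subunits, and Atp5g1, Atp5g2 and Atp5g3 encode the same mature c protein behind different import signals. Atp5g3 had 159.6, 166, 178 and 166 CPM in Lpcat3 livers 1 to 4, against 149, 161, 135 and 169 CPM in eGFP livers 1 to 4, and eGFP liver 4 lay above Lpcat3 livers 1, 2 and 4 (log2 fold change of 0.12, 95% interval -0.059 to 0.31, edgeR adjusted p = 0.666). Atp5g1 had 32.9, 29.7, 41.8 and 33.6 CPM in Lpcat3 livers 1 to 4, against 32.1, 33.7, 24.4 and 37.3 CPM in eGFP livers 1 to 4, the widest spread of the 3 (log2 fold change of 0.11, 95% interval -0.20 to 0.43, edgeR adjusted p = 0.808). Atp5g2 had 23.3, 21.2, 21.3 and 20.9 CPM in Lpcat3 livers 1 to 4, against 20.5, 22.5, 17.6 and 21.8 CPM in eGFP livers 1 to 4, with Lpcat3 liver 1 highest and eGFP livers 2 and 4 next (log2 fold change of 0.074, 95% interval -0.12 to 0.27, edgeR adjusted p = 0.799). Per kb of the shortest coding transcript the levels were 234 CPM per kb in Lpcat3 livers and 215 CPM per kb in eGFP livers for Atp5g3, 57.8 CPM per kb in Lpcat3 livers and 53.5 CPM per kb in eGFP livers for Atp5g1 and 49.1 CPM per kb in Lpcat3 livers and 46.7 CPM per kb in eGFP livers for Atp5g2. With the longest coding transcript in place of the shortest, Atp5g3 stood at 231 CPM per kb in Lpcat3 livers and 212 CPM per kb in eGFP livers. Atp5g1 then stood at 7.31 CPM per kb in Lpcat3 livers and 6.76 CPM per kb in eGFP livers and Atp5g2 at 29.7 CPM per kb in Lpcat3 livers and 28.2 CPM per kb in eGFP livers. Atp5g3 was therefore the highest of the 3 under either length, while the order of the other two turned with the length used.

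The remaining 17 members were Sdhb, Uqcr10, Uqcr11, Uqcrfs1, Uqcrq, Cox5a, Cox5b, Atp5a1, Atp5c1, Atp5e, Atp5h, Atp5j, Atp5j2, Atp5l, Atp5md, Atp5o and Atp5pb. They include the iron-sulfur proteins of complexes II and III, subunits 5a and 5b of complex IV and the alpha, gamma and peripheral stalk subunits of complex V. All 17 had log2 fold changes above 0, from 0.0079 to 0.12, with edgeR adjusted p from 0.662 to 0.98. Their levels ran from 16.3 to 479 CPM over single libraries.

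The differences between single libraries were shared across complexes. Lpcat3 liver 3 was the highest of the 8 libraries for 30 of 42 members, and eGFP liver 3 was the lowest for 37. eGFP liver 4 was among the highest 2 for 26 members, and it lay above the Lpcat3 mean for 32. Median deviations from the gene means were 0.017, 0.0073, 0.14 and 0.0016 on the log2 scale in Lpcat3 livers 1 to 4, against -0.065, -0.0017, -0.17 and 0.086 in eGFP livers 1 to 4. Only Lpcat3 liver 3 of its group stood clearly apart from 0, while eGFP livers 3 and 4 lay on opposite sides of it.

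**Figure D3:**
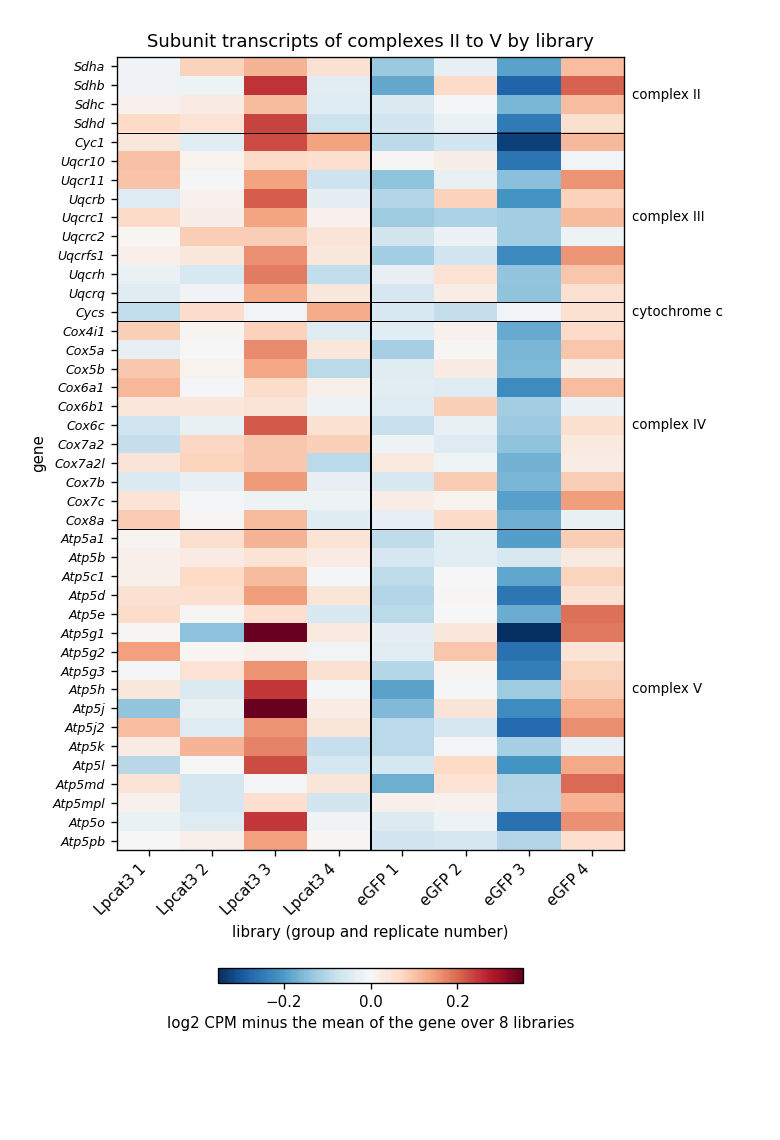
Log2 CPM of each of the 42 subunits (rows, by complex) minus the mean of that gene over the 8 libraries (colour scale), with Lpcat3 livers 1 to 4 on the left of the vertical line and eGFP livers 1 to 4 on the right. The column of Lpcat3 liver 3 is the highest for 30 genes and that of eGFP liver 3 the lowest for 37.

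The size of the shift rested on these libraries. Without eGFP liver 3 the median log2 fold change of the 42 members was 0.043, without Lpcat3 liver 3 it was 0.047, and without both it was 0.012, with 27 of 42 above 0. Without eGFP liver 4 it was 0.12, the groups of 11 members did not overlap, and 6 of 42 members had an unadjusted p below 0.05, where 0 did with all 8 libraries. The shares of all genes for these counts without that liver are not given here, and smaller groups separate more easily. The counts therefore cannot be read as particular to the subunits. Without eGFP liver 4 the smallest edgeR adjusted p of a named member was 0.298, so none was called. The library titles carry code numbers whose meaning is not given, and the groups are spread unevenly over them. Within codes 1290 and 1317, which hold 1 Lpcat3 and 3 eGFP libraries, 37 of 42 members were higher with Lpcat3 and the median difference was 0.11. Within codes 1344 and 1345, which hold 3 Lpcat3 libraries and 1 eGFP library, 14 of 42 were higher and the median was -0.021. The direction of the shift therefore did not hold within both sets of codes, and the 1 eGFP library of the second set is liver 4.

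Library totals in place of TMM also turned the sign. With DESeq2 size factors the median log2 fold change of the members was 0.089, and with the upper quartile it was 0.081. When the libraries were scaled by their totals, the median over all genes moved by -0.12 on the log2 scale, 10 of 42 members lay above 0, beside 23.1% of all genes, and the members' median was -0.035. The medians of complexes II, III, IV and V and the value of cytochrome c were then all below 0, at -0.014 for complex II. Relative to the median gene, 41 of 42 members were higher with TMM and with library totals. This count was 31 with a term for the division of code numbers, 28 without both libraries numbered 3 and 26 with a term for each code number. In the other fits it ran from 35 to 42.

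**Figure D4:**
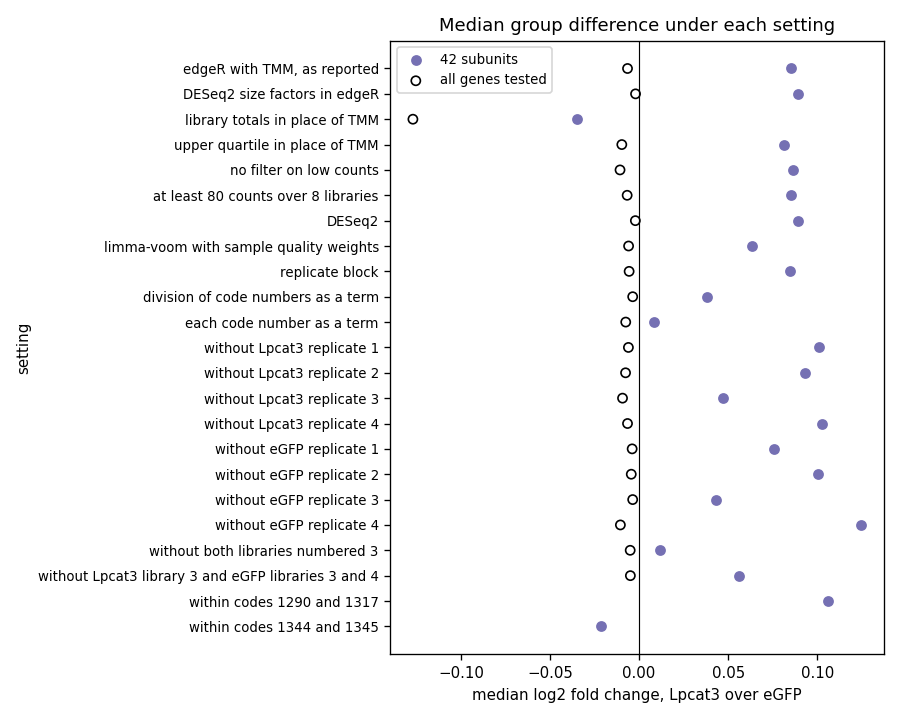
Median log2 fold change (Lpcat3 over eGFP, x axis) of the 42 subunits under each way of processing the counts (rows), beside the median over all genes tested where it was fitted (open circles). The median of the subunits lies at 0.085 as reported, at 0.012 without both libraries numbered 3, at -0.021 within codes 1344 and 1345, and at -0.035 with library totals.

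Marker sums of hepatocytes and of recruited macrophages were highest or lowest in the same libraries as the subunits, while those of Kupffer and endothelial cells were ordered differently. The 8 hepatocyte markers (Alb, Apoa1, Ttr, Hnf4a, Cps1, Asgr1, Serpina1c and Cyp2e1) summed to 59583, 56375, 85209.6 and 54681 CPM in Lpcat3 livers 1 to 4, against 49559, 60938, 42179.6 and 72656 CPM in eGFP livers 1 to 4. Lpcat3 liver 3 and eGFP liver 4 were the highest and eGFP liver 3 the lowest, and 8 of 8 markers had log2 fold changes above 0 (median 0.15), none called. The 10 markers of recruited and lipid-associated macrophages (Adgre1, Cd68, Itgax, Trem2, Gpnmb, Cd9, Spp1, Ccr2, Lgals3 and Cd44) summed to 274, 274, 119 and 262 CPM in Lpcat3 livers 1 to 4, against 381, 262, 421 and 186 CPM in eGFP livers 1 to 4. At the extremes their order ran opposite to that of the subunits, with eGFP liver 3 highest and Lpcat3 liver 3 lowest. The libraries at 262 to 274 CPM did not follow a reversed order. Of these macrophage markers, 9 of 10 had log2 fold changes below 0 (median -0.59), none called. Endothelial markers had log2 fold changes below 0 for 6 of 6, with sums of 385, 305, 351 and 337 CPM in Lpcat3 livers 1 to 4, against 422, 401, 393 and 384 CPM in eGFP livers 1 to 4. Kupffer cell markers were below 0 for 4 of 6, with sums of 149, 121, 185 and 93.5 CPM in Lpcat3 livers 1 to 4, against 209, 172, 184 and 216 CPM in eGFP livers 1 to 4. Lpcat3 liver 3 and eGFP liver 3 were thus close to each other in Kupffer cell markers, and neither was highest or lowest of the 8 in endothelial markers. A marker sum rests most on its genes with the most reads, and single markers are not given by library here. The part of these cell types in the subunit values was not tested.

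**Figure D5:**
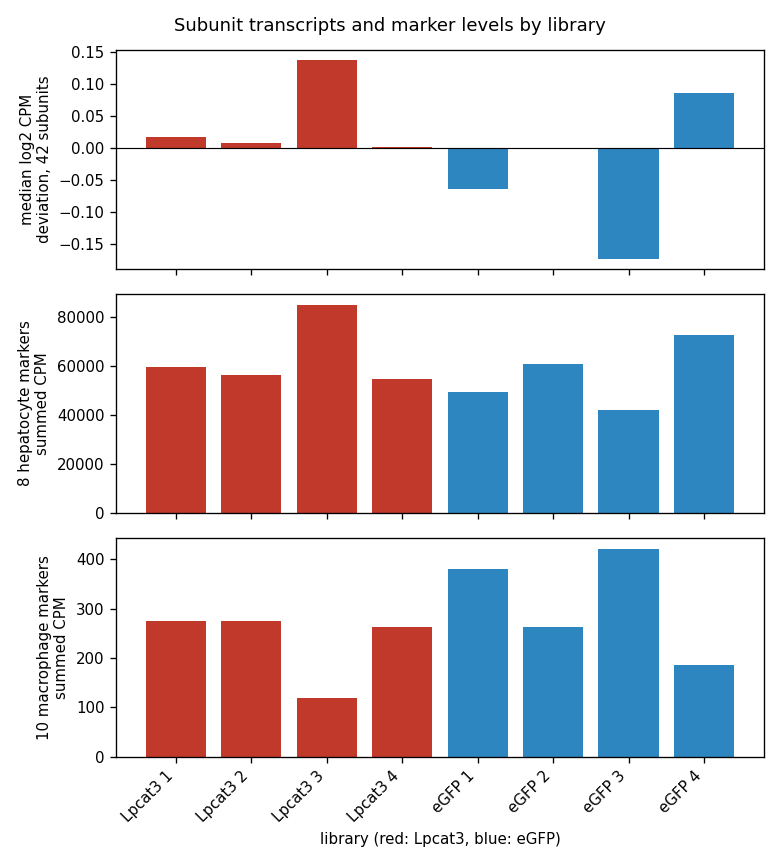
Median log2 CPM deviation of the 42 subunits (top), summed CPM of 8 hepatocyte markers (middle) and summed CPM of 10 macrophage markers (bottom) in Lpcat3 livers 1 to 4 (left, red) and eGFP livers 1 to 4 (right, blue). Lpcat3 liver 3 has the highest bar in the top and middle panels and the lowest in the bottom panel, and eGFP liver 3 the reverse.

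Markers of the remaining cell types were also summed by library. Stellate cell and myofibroblast markers were below 0 for 5 of 8, with sums of 497, 528, 307 and 486 CPM in Lpcat3 livers 1 to 4, against 517, 481, 475 and 432 CPM in eGFP livers 1 to 4. The cholangiocyte markers (Krt7, Krt19, Epcam, Sox9 and Spp1) share Spp1 with the list of recruited macrophages, so the sums of these lists are not independent. Of the cholangiocyte markers, 4 of 5 were above 0, with sums of 83.6, 125, 38.9 and 99.1 CPM in Lpcat3 livers 1 to 4, against 70.4, 85.4, 77.1 and 37.7 CPM in eGFP livers 1 to 4. Lpcat3 liver 3 and eGFP liver 4, where the subunits were high, had the lowest sum of their group in the stellate cell and cholangiocyte lists. T and NK cell markers were below 0 for 4 of 5 tested, with 4.14 to 5.56 CPM in Lpcat3 livers and 3.35 to 9.58 CPM in eGFP livers. B cell markers were below 0 for 5 of 5, with 2.40 to 3.87 CPM in Lpcat3 livers and 3.06 to 5.07 CPM in eGFP livers. Skeletal muscle markers, a possible source of respiratory transcripts, summed to 0.0861 to 0.318 CPM in Lpcat3 livers and 0.124 to 0.334 CPM in eGFP livers, with Ckm and Mb at 0 counts. Adipocyte markers summed to 4.17, 43.2, 51.1 and 14.4 CPM in Lpcat3 livers 1 to 4, against 1.81, 4.04, 4.05 and 21.8 CPM in eGFP livers 1 to 4, with Lep at 0 counts. Only 1 of the 4 adipocyte markers passed the filter on low counts, so these sums may rest largely on 1 gene. Lpcat3 liver 3 and eGFP liver 4 were the highest of their groups here, and the part of these cell types in the subunit values was not tested either.

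Assembly factors put the subunits and their metal centres together. Of 40 assembly factors tested of 42 listed, 30 had log2 fold changes above 0 and 10 below (median 0.081), and 0 were called. Their sums lay between 719 and 784 CPM in Lpcat3 livers, against 659 to 759 CPM in eGFP livers. Cox16, which helps to assemble the copper centre of complex IV, was scarce, with 0.689, 0.486, 1.10 and 0.875 CPM in Lpcat3 livers 1 to 4, against 0.393, 0.368, 0.594 and 0.33 CPM in eGFP livers 1 to 4 (log2 fold change of 0.88, adjusted p = 0.569 in edgeR, SE 0.33). Uqcc1, an assembly factor for complex III, averaged 32.2 ± 2.69 CPM in Lpcat3 livers and 27.5 ± 3.87 CPM in eGFP livers (log2 fold change of 0.23, edgeR adjusted p = 0.597). Bcs1l, which inserts the iron-sulfur protein of complex III, averaged 10.2 ± 1.70 CPM in Lpcat3 livers and 8.28 ± 0.985 CPM in eGFP livers (log2 fold change of 0.29, edgeR adjusted p = 0.601; SD, n = 4 each for both). Pet117, a complex IV assembly factor, had 0 counts in all 8 libraries, with the same limit of 0.0156 CPM (counting error only). Reads lost in alignment or counting cannot be told apart from an absent transcript here.

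The carriers that exchange ADP, ATP and phosphate, with the outer membrane channels, had 5 of 6 log2 fold changes above 0 (median 0.068) and 0 called. Slc25a5, an adenine nucleotide carrier, had 348, 352, 347 and 344 CPM in Lpcat3 livers 1 to 4, against 343, 333, 291 and 342 CPM in eGFP livers 1 to 4. Its groups did not overlap, yet its difference was small (log2 fold change of 0.086, edgeR adjusted p = 0.725). Vdac1 averaged 215 ± 10.01 CPM in Lpcat3 livers and 202 ± 14.5 CPM in eGFP livers (log2 fold change of 0.092, edgeR adjusted p = 0.7). Vdac2 averaged 44.3 ± 0.975 CPM in Lpcat3 livers and 41.6 ± 3.02 CPM in eGFP livers (log2 fold change of 0.091, edgeR adjusted p = 0.672; SD, n = 4 each for both). Of 5 subunits and interactors of complexes IV and V in the list of genes outside the symbol rule, 3 were above 0 and 0 called (median 0.0046), although Atp5md and Atp5mpl entered that list under other names and are members. Ndufa4, now counted with complex IV, averaged 106 ± 5.35 CPM in Lpcat3 livers and 97.9 ± 6.11 CPM in eGFP livers (log2 fold change of 0.11, edgeR adjusted p = 0.651). Atpif1, the inhibitor that stops complex V from running in reverse, averaged 13.2 ± 1.19 CPM in Lpcat3 livers and 13.5 ± 1.67 CPM in eGFP livers (log2 fold change of -0.036, edgeR adjusted p = 0.924; SD, n = 4 each for both).

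Transcriptional regulators of respiratory genes had 9 of 10 log2 fold changes above 0 (median 0.079) and 0 called. Ppargc1a, the coactivator PGC-1alpha that drives mitochondrial gene programs, had 21.3, 21.95, 39.7 and 18.5 CPM in Lpcat3 livers 1 to 4, against 16.8, 21.6, 11.5 and 21.0 CPM in eGFP livers 1 to 4. Lpcat3 liver 3 stood far above the rest and eGFP liver 3 was lowest, as for most subunits, while eGFP liver 4 lay below Lpcat3 livers 1 and 2, and the difference was not called (log2 fold change of 0.52, adjusted p = 0.625 in edgeR, SE 0.27). Gabpa, the DNA-binding subunit of the ETS-family factor GABP, averaged 56.0 ± 5.51 CPM in Lpcat3 livers and 51.1 ± 4.29 CPM in eGFP livers (log2 fold change of 0.13, edgeR adjusted p = 0.666). The search did not assign the ETS letters marked in the Sdhd and Cox6a1 promoters above to a single factor. Tfam, which packages and transcribes mitochondrial DNA, averaged 24.8 ± 2.74 CPM in Lpcat3 livers and 22.1 ± 3.06 CPM in eGFP livers (log2 fold change of 0.17, edgeR adjusted p = 0.668; SD, n = 4 each for both).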

How the data were processed

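RNA of 8 whole livers was extracted with TRIzol, depleted of ribosomal RNA with FastSelect, made into stranded libraries with a Kapa kit and read as single reads of 101 cycles, per the labels' protocols. The authors deposited raw counts per gene, whole numbers that were not normalized, named by NCBI gene numbers. The submitters' processing notes name bcl2fastq 2.20, DESeq2 and GRCm39. Which aligner and counter were used, and whether strand was used, is not given in the sources used here, so reads shared with overlapping genes or pseudogenes are uncertain. RefSeq names matched 39397 of 40838 rows (99.5% of counts), and 0 columns lacked a sample.

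Here the deposited counts were tested with edgeR 4.0.16 (R 4.3.3; TMM, filterByExpr with a minimum count of 10, robust quasi-likelihood, Benjamini-Hochberg over 17438 genes, called at 0.05, two-sided), which was checked on simulated counts. The biological coefficient of variation was 16.9%. CPM used TMM-scaled totals, and log2 CPM a prior count of 2. Per-kb levels used GENCODE M21 coding transcripts. Alternatives were DESeq2 1.42.0, limma 3.58.1, other scalings and filters, code numbers and left-out libraries. No pair of libraries within a group agreed within sampling noise.

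The members, lists and tests were chosen with earlier results of these data known. Genes named were Lpcat3, Cycs, the isoforms and c-ring genes, the highest CPM, the 3 smallest p and the lowest log2 fold change of each complex, the members nearest the 80-count limit, and up to 3 genes by p of each other pathway list.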

Additional observations from a re-analysis of the deposited data

Results flagged for a closer look

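Within a group of 4 libraries, 12 values lay so far from the other 3 that the gap as a share of the group's range exceeded Dixon's 95% critical value. They came from 92 groups of 4 that were checked, where chance gives about 1 in 20, and the genes and sums share libraries, so the 12 are not independent.

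In Lpcat3 liver 3, the highest of its group each time, Sdhb had 132 CPM beside 108 to 109.7 CPM in the other Lpcat3 livers. In the same liver Uqcrfs1 had 98.5 CPM beside 89.2 to 90.6 CPM, and Cox7b had 135 CPM beside 117 to 119 CPM. Atp5d there had 147 CPM beside 137 to 138 CPM, Atp5o had 73.2 CPM beside 59.8 to 61.2 CPM, and Atp5pb had 132 CPM beside 119 to 121 CPM. The summed subunits of complex III came to 752 CPM beside 677 to 681 CPM, and those of complex V to 2141 CPM beside 1986 to 2005 CPM. This is also the liver with the highest hepatocyte marker sum and the lowest macrophage marker sum.

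Lpcat3 liver 4 was the lowest of its group for Cox6b1, at 130.0 CPM beside 135 to 136 CPM, and Lpcat3 liver 1 for Cox7a2, at 48.0 CPM beside 53.5 to 54.4 CPM. eGFP liver 4 was the highest of its group for Uqcrc1, at 99.7 CPM beside 84.8 to 85.6 CPM, and eGFP liver 3 the lowest for Uqcr10, at 22.6 CPM beside 26.9 to 27.5 CPM. Sdhb, Uqcr10, Uqcrfs1, Atp5o and Atp5pb are named here for this gap, after their values were seen.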

How the results depend on the processing

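No subunit was called under any of the 20 alternatives fitted. Leaving out 1 library at a time, the genes called higher ranged from 0 to 7 (7 without Lpcat3 liver 1, 2 without Lpcat3 liver 2), and the subunits whose groups did not overlap, higher with Lpcat3, from 1 to 11 (11 without eGFP liver 4). The shares of all genes without overlap are not given here for any alternative. The fits with 1 library left out gave Cox7c log2 fold changes of -0.063 to 0.049, Uqcrh -0.053 to 0.045, Cox7b -0.031 to 0.053 and Atp5mpl -0.065 to 0.011.

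With library totals, 3 genes were called higher (Egfros, Lpcat3 and Onecut1), 10 subunits lay above 0, 0 did not overlap and were higher, and 1, Cox7b, did not overlap and was lower. The medians were -0.035 over all members, -0.014 for complex II, -0.0083 for complex III, -0.070 for cytochrome c, -0.043 for complex IV and -0.021 for complex V. The named subunits that changed sign were Sdhc (-0.064), Uqcrb (-0.046), Uqcrc2 (-0.0083), Uqcrh (-0.11), Cox4i1 (-0.053), Cox6a1 (-0.019), Cox6b1 (-0.068), Cox6c (-0.031), Cox7a2 (-0.035), Cox7a2l (-0.058), Cox7b (-0.10), Cox8a (-0.039), Atp5b (-0.058), Atp5g1 (-0.0011), Atp5g2 (-0.038) and Cycs (-0.070). That scaling moves the median of all genes by -0.12, which is larger than most of these values.

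DESeq2 called 28 genes higher and 23 lower and gave Cox7c 0.0021, and its size factors in edgeR gave Cox7c 0.0020. With no filter on low counts 0 genes were called higher. Limma-voom gave Uqcrh -0.031 and Cox7b -0.016.

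The replicate block, on numbers that do not pair the samples (correlations of same-numbered livers 0.285, -0.0689, -0.40 and -0.124), called 0 genes higher and gave Cox7c 0.0023. The block left 24 of 25 named subunits with their direction. A term for the division of code numbers called 0 genes higher, with 31 subunits above 0 and a median of 0.038 over all members, and gave Uqcrh -0.033, Cox7b -0.032 and Cycs -0.014. A term for each code number called 0 genes higher, with 24 subunits above 0, medians of 0.0082 over all members, -0.015 for complex II, 0.014 for complex III and -0.0075 for complex IV, and Sdhc -0.041, Uqcrb -0.072, Uqcrh -0.098, Cox6c -0.011, Cox7a2 -0.0075, Cox7a2l -0.031, Cox7b -0.089 and Atp5g1 -0.065. Within codes 1290 and 1317 the value of cytochrome c was -0.037. Within codes 1344 and 1345 the medians were -0.050 for complex II, -0.017 for complex III, -0.0034 for complex IV, -0.026 for complex V and -0.021 for all members.

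Without both libraries numbered 3, 0 genes were called higher, 1 subunit, Atp5mpl, did not overlap and was lower, and the values were Sdhc -0.018, Uqcrb -0.044, Uqcrh -0.096, Cox7a2l -0.0032, Cox7b -0.078 and Atp5g1 -0.10. Without Lpcat3 liver 3 and eGFP livers 3 and 4, an alternative chosen after seeing the data, 0 genes were called higher and the values were Uqcrb -0.013, Uqcrh -0.066, Cox6b1 -0.0017, Cox7b -0.055, Cox8a -0.0010 and Atp5g1 -0.036. The causes were not tested. Lpcat3 itself had log2 fold changes of 0.84 to 1.36 and adjusted p from 9.77e-09 to 0.706 over the 20 alternatives. The member with the fewest reads, Atp5k, had 2671 counts over the 8 libraries, so counting error is part of the spread of the members with few reads, and the shares of counting error and of differences between livers were not tested.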
